A study of Mus musculus and Rattus norvegicus with 8 samples.

Results

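The genes of the mitochondrial respiratory chain were followed in the lungs of mechanically ventilated mice and rats. They were the probe sets whose only gene symbol starts with Nduf, Sdh, Uqcr, Cox4 to Cox8 or Atp5, or is Cycs or Cyc1. Cox8b, counted here among the fat markers, was left out. On the mouse arrays 101 of 12422 probe sets met this rule and covered 74 genes, of which 73 passed the filter on dim genes and Cox8a did not. On the rat arrays 100 of 8740 probe sets met it and covered 55 genes, all of which passed. After names were matched between the species, 41 genes were measured in both. None of the 13 mitochondrially encoded subunits had a probe set of its own name on either array. The rule takes in assembly factors (Ndufaf, Sdhaf), the inhibitor Atp5if1 and the pseudogene Cox6c-ps1 along with the subunits.

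Lung RNA of 8 samples was hybridised to 1 oligonucleotide array each, with 2 ventilated and 2 control arrays per species. Ventilated mice (male C57BL6, 7 to 8 weeks old) received a large tidal volume, either 17 ml/kg over 6 hours or 35 ml/kg over 2 hours, and the labels do not say which array had which regimen. Their controls breathed spontaneously. Ventilated rats (male Wistar, 8 weeks old) received 12 ml/kg of room air for 5 hours, while their controls breathed unaided through the same kind of tracheal cannula.

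The respiratory chain passes electrons from NADH and succinate to oxygen through complexes I to IV of the inner mitochondrial membrane. The protons pumped on the way drive complex V, the ATP synthase. Most subunits are encoded in the nucleus and a few core subunits in mitochondrial DNA. Expression of the nuclear genes is known to respond to NRF1, GABP and the coactivator PGC-1alpha. Tissues that burn much fat, such as heart and brown fat, carry dense mitochondria, and several cytochrome c oxidase subunits exist as tissue isoforms.

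Values are array signals, quantile-normalised within a species. Signals were compared between arrays and not between genes, since brightness also depends on the probe, except where genes were binned by brightness. The test was limma's moderated test over all genes passing the filter, 6888 mouse genes and 3876 rat genes, and a gene was called at a Benjamini-Hochberg adjusted p under 0.05. Replicate arrays correlated at 0.908 (ventilated) and 0.935 (control) in the mouse, and at 0.977 (ventilated) and 0.967 (control) in the rat. The highest mouse correlation, 0.963, joined ventilated 2 with control 1. The labels say no more of the replicates than their number, so the p-values measure only the spread between these samples, and the number of arrays limits their precision. In whole lung, fewer cells of a type and less RNA per cell cannot be told apart.

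In ventilated rat lungs the respiratory chain genes lay mostly above the controls. Of the 55 genes, 13 rose, against 2.48% of all genes tested, and 0 fell by the same limma test, against 3.30% of all genes. At an unadjusted p under 0.05 there were 40 higher and 1 lower (background 13.1% and 12.2%). Both ventilated arrays lay above both controls for 43 genes (27.7% of all genes did so) and below both for 4 (27.1% of all genes). The median log2 change was 0.50, a fold of 1.41, and the quartiles were 0.27 and 0.71, against a median of -0.01 over all genes. The change was above 0 in 48 of 55 members and in 49.3% of all genes. Without any 1 of the 4 arrays limma called 0 of all genes in either direction, and so 0 members, with 25 to 30 members higher at an unadjusted p under 0.05, and the median change lay between 0.45 and 0.57. The count of 13 also moved with the processing: it was 22 with arrays scaled to a common median (155 of 3874 genes were then called higher), 6 with the replicate number as a block (1.78%), 1 with a higher floor (0.439%), 1 with no filter on dim genes (0.486%) and 0 without limma's variance trend (1.03%, with 28 members higher at an unadjusted p under 0.05).

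**Figure D1:**
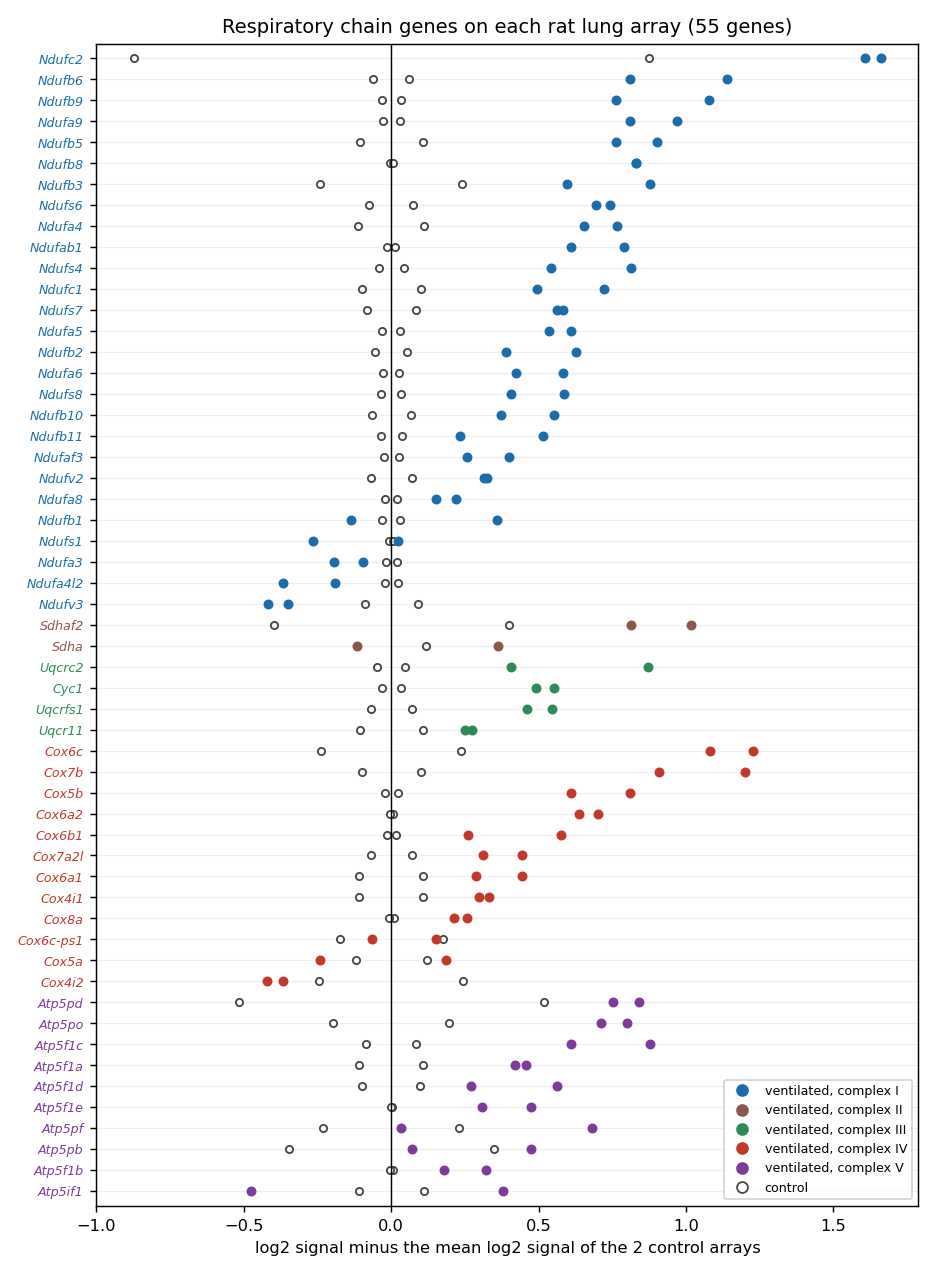
Respiratory chain genes on each rat lung array. The horizontal axis is the log2 signal minus the mean log2 signal of the 2 control arrays, filled points are ventilated arrays coloured by complex, and open points are control arrays. Filled points lie right of the open ones without overlap for 43 of 55 genes and left of them for 4.

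By gene name, complex I, the NADH dehydrogenase, held 27 of the rat genes, among them Ndufa4, Ndufa4l2 and the assembly factor Ndufaf3. Of these 27, 8 rose (2.48% of all genes did), 22 lay above the controls without overlap (27.7% of all genes) and 3 below (27.1%). The median log2 change of the 27 was 0.57. Of the called genes, 4 are accessory subunits of the membrane arm, which carries the proton channels. Ndufb8, the member with the smallest p, had a signal of 1408 on both ventilated arrays, against 790 and 796 on the controls, a log2 change of 0.83 ± 0.10 (SE, n = 2 each, limma adjusted p = 0.0123). Ndufb9, another of the 4, had 1374 and 1105 in ventilated lungs, against 637 and 666 in controls (log2 change 0.92 ± 0.14, adjusted p = 0.0208 by limma). Both genes were clearly separated between the groups, with a control pair that differed little.

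Ndufb6 and Ndufb5, accessory subunits of the same arm, gave the same picture. Ndufb6 had 459 and 366 in ventilated lungs, against 200.1 and 218 in controls, with a log2 change of 0.97 and a limma adjusted p of 0.0308. Ndufb5 had 414 and 376 in ventilated lungs, against 205 and 238 in controls, with a log2 change of 0.83 and a limma adjusted p of 0.0361. The lower ventilated array of either gene was well above the higher control, and both probe sets of each gene were higher without overlap.

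The called genes outside the membrane arm's Ndufb group were Ndufs6, Ndufa9, Ndufab1 and Ndufa4. Ndufs6, a zinc-binding subunit of the matrix arm, had 790.2 and 816 in ventilated lungs, against 463 and 514 in controls (log2 change 0.72, limma adjusted p = 0.0299). Ndufa9, which sits where the arms join, had 225 and 201 in ventilated lungs, against 117 and 112 in controls (log2 change 0.89, limma adjusted p = 0.0366). Ndufab1, the mitochondrial acyl carrier protein, had 687 and 606 in ventilated lungs, against 393 and 401 in controls (log2 change 0.70, limma adjusted p = 0.0366). All of these pairs were apart by more than either group's own spread. Ndufa4, named for complex I and since assigned to complex IV, had 878 and 812 in ventilated lungs, against 558 and 478 in controls, a log2 change of 0.71 (limma adjusted p = 0.0368).

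Ndufc2, a membrane arm subunit, had the largest change of any member and did not pass the test. Its signal was 808 and 839 in ventilated lungs, against 145 and 486 in controls, a log2 change of 1.63 ± 0.51 (limma adjusted p = 0.114). On the log2 scale the controls differed from each other more than the brighter one differed from the ventilated arrays, and the change was 0.76 without the dimmer control and 2.52 without the brighter one.

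The genes named for complex I that lay below the controls included a subunit of the flavoprotein module. Ndufv3 had 503 and 528 in ventilated lungs, against 632 and 715 in controls (log2 change -0.38, limma adjusted p = 0.130). Ndufa4l2, a paralogue of Ndufa4 known to be induced by hypoxia, had 245 and 277 in ventilated lungs, against 321 and 311 in controls (log2 change -0.28, limma adjusted p = 0.291). All 5 probe sets of Ndufa4l2 were lower without overlap, with log2 changes between -0.51 and -0.28. All 5 have an ambiguous suffix (_f_at or _i_at), so none was left when such probe sets were dropped. Ndufa3, a small membrane arm subunit, had 328 and 306 in ventilated lungs, against 346 and 354 in controls (log2 change -0.14, limma adjusted p = 0.554). None of the 3 passed the test. Ndufb1 had overlapping groups, as did Ndufs1, a large iron-sulfur subunit read at signals of 22.6 to 27.6.

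Complex II, which oxidises succinate, was represented by Sdha and the assembly factor Sdhaf2. Sdhaf2, which helps attach the flavin to Sdha, had 258 and 297 in ventilated lungs, against 193 and 111 in controls (log2 change 0.91, limma adjusted p = 0.107). The change was 0.52 without control 2 and 1.34 without control 1. Sdha, the flavoprotein subunit, had 302 and 420 in ventilated lungs, against 355 and 301 in controls, and its groups overlapped.

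Complex III, the cytochrome bc1 complex, had 4 rat genes, all above the controls without overlap (27.7% of all genes were). Limma called 0 of them (3 at an unadjusted p under 0.05), and their median log2 change was 0.51. Uqcrfs1, the Rieske iron-sulfur protein, had 1498 and 1413 in ventilated lungs, against 978 and 1078 in controls (log2 change 0.50 ± 0.11, limma adjusted p = 0.0525). Its 3 probe sets changed by 0.50 to 0.85. Cyc1, the cytochrome c1 subunit, had 528 and 505 in ventilated lungs, against 368 and 352 in controls (log2 change 0.52, limma adjusted p = 0.0653). Uqcrfs1 and Cyc1 stood just outside the threshold while their groups were well apart. The core protein Uqcrc2 changed by 0.64 and the small subunit Uqcr11 by 0.26 on the log2 scale, neither of them called.

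Complex IV, cytochrome c oxidase, had 12 rat genes by name, without Ndufa4. Of these 12, 3 rose (2.48% of all genes did), 9 lay above the controls without overlap (27.7% of all genes) and 1 below (27.1%). The median log2 change was 0.37. Cox7b, a small nuclear-encoded subunit, had 561 and 458 in ventilated lungs, against 228 and 262 in controls (log2 change 1.05, limma adjusted p = 0.0223). Cox5b, a subunit facing the matrix, had 1511 and 1315 in ventilated lungs, against 849 and 875 in controls (log2 change 0.71, limma adjusted p = 0.0277). Cox6c had 225 and 204 in ventilated lungs, against 81.7 and 113 in controls (log2 change 1.15, limma adjusted p = 0.0366). In each of the 3 genes both ventilated arrays stood well above both controls, and the Cox6c change corresponds to the largest called fold, 2.23.

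Among the called members, the probe sets of Cox6c and Ndufb8 disagreed in direction. The other Cox6c probe set had 19.0 and 7.75 in ventilated lungs, against 29.7 and 36.4 in controls, a log2 change of -1.16, with 1 ventilated value below the floor of 11.5 and both controls above it. Of the 4 Ndufb8 probe sets, 1 was at 77.0 and 12.5 in ventilated lungs, against 158 and 102 in controls, and changed by -2.03. Both of these probe sets passed the filter and were lower without overlap, opposite to the called ones. When a gene was represented by the mean of its probe sets, Cox6c changed by -0.00072 on the log2 scale and Ndufb8 by -0.28. Members that were not called disagreed too. Ndufb11 had a probe set higher (0.37) and another lower (-0.21) without overlap. Atp5if1 had probe sets higher (1.08 and 0.19) and lower (-0.54) without overlap, beside the overlapping one that represented it. Of all 96 rat member probe sets that passed the filter, 71 were higher without overlap, 12 were lower and 13 overlapped. Of all rat probe sets with 1 symbol that passed it, 27.6% were higher and 27.3% lower.

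The tissue isoforms of cytochrome c oxidase were read side by side in the rat. Cox4i1, the general isoform of subunit 4, had 2962 and 2890 in ventilated lungs, against 2183 and 2537 in controls (log2 change 0.31, limma adjusted p = 0.135). Cox4i2, the isoform prominent in lung, had 326 and 339 in ventilated lungs, against 518 and 369 in controls (log2 change -0.39, limma adjusted p = 0.251). The 2 isoforms lay on opposite sides of the controls, and neither difference passed the test. Leaving out 1 control moved both: without control 1 the changes were 0.18 (Cox4i1) and -0.15 (Cox4i2), and without control 2 they were 0.44 and -0.63. Cox6a1, the general isoform of subunit 6a, had 2118 and 1903 in ventilated lungs, against 1445 and 1679 in controls (log2 change 0.37, limma adjusted p = 0.125). Cox6a2, the heart and muscle isoform, had 273 and 260.5 in ventilated lungs, against 168 and 167 in controls (log2 change 0.67, limma adjusted p = 0.0535). Cox7a2l, a factor in supercomplex assembly, had 1071 and 978 in ventilated lungs, against 751 and 826 in controls (log2 change 0.38, limma adjusted p = 0.115). The other Cox7a2l probe set changed by 0.26. All of these, with Cox4i2 on the lower side, were without overlap. Cox6b1 and Cox8a were also higher without overlap, at log2 changes of 0.42 and 0.24, while Cox5a and Cox6c-ps1, read near the floor, overlapped.

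Complex V, the ATP synthase, had 10 rat genes with a median log2 change of 0.40. Of these 10, 2 rose (2.48% of all genes did) and 7 lay above the controls without overlap (27.7% of all genes). Atp5f1c, the gamma subunit of the rotating stalk, had 699 and 843 in ventilated lungs, against 486 and 432 in controls (log2 change 0.74, limma adjusted p = 0.0403). Atp5po, which joins the catalytic head to the peripheral stalk, had 1616 and 1715 in ventilated lungs, against 861 and 1129 in controls (log2 change 0.76, limma adjusted p = 0.0412). Both were higher on every ventilated array. The catalytic subunits Atp5f1a and Atp5f1b changed by 0.44 and 0.25 on the log2 scale and were not called. Atp5if1, the inhibitor that stops the enzyme running backwards, had 276 and 499.9 in ventilated lungs, against 356 and 415 in controls, and overlapped along with Atp5pf and Atp5pb.

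To set the regulation known for these genes beside the rat values, the promoters of the corresponding mouse genes were searched on both strands for strings bound by NRF1 (the core CGCATGCG), GABP (CCGGAAG) and YY1 (AAGATGGC). The promoters, from RefSeq on GRCm38.p6, ran from 250 bases before to 50 after each gene's start. A rat member was matched by its own symbol only if the mouse array had that symbol, and otherwise by a unique synonym. So matched, 36 of the 55 rat members had a mouse promoter, while 53 had a counterpart among all RefSeq mouse genes. The counts that follow thus depend on the mouse array and leave out, among others, the called Ndufs6 and Ndufa4. No rat promoter was used, and the 3 strings do not contain each other. The GABP string stood in 9 of the 36 promoters (25%), in 8 of the 30 of members higher without overlap, in 1 of the 9 of called members, and in 12.9% of 17491 protein-coding genes. The YY1 string stood in 7 of the 36 (19.4%), in 4 of those 30 and 2 of those 9, against 3.57% of all. The NRF1 core stood in 4 of the 36 (11.1%), 3 of those 30 and 0 of those 9, against 2.77% of all. With a G before it and a C after it, the full palindrome stood in 1 of the 36 (2.78%), against 1.47% of all. A string is only a match of letters and shows no binding. The 6 windows of 60 bases that follow lie upstream of the start and are shown for members that were higher without overlap, at least 1 per complex, on the gene's strand with the matched string in capitals (CTTCCGG is the GABP string on the other strand).
Ndufb6: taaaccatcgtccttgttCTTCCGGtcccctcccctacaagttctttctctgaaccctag
Sdhaf2: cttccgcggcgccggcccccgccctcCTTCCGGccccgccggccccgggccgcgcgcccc
Uqcr11: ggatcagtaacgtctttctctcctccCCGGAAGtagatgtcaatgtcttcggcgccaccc
Cox6b1: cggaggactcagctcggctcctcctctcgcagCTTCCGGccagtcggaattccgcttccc
Cox6a1: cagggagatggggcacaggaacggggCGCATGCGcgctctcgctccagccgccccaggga
Atp5e: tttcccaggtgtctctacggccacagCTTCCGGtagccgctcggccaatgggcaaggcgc
The windows lie on the minus strand of GRCm38.p6, all before the annotated start of the gene they are named for. Ndufb6 is at chr4:40279612-40279671, Sdhaf2 at chr19:10525334-10525393 and Uqcr11 at chr10:80406854-80406913. Cox6b1 is at chr7:30626115-30626174, Cox6a1 at chr5:115349086-115349145 and Atp5e, the mouse counterpart of rat Atp5f1e, at chr2:174464170-174464229. Only Ndufb6 among them was called in the rat.

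Other mitochondrial gene groups also had medians above 0 in the rat, against -0.01 over all genes, of which 2.48% rose and 3.30% fell. Of 17 fatty acid oxidation genes 3 rose and 0 fell, with a median log2 change of 0.39. Acadl and Decr1, which act in beta-oxidation, changed by 1.11 and 1.21. Etfdh, which hands electrons from fatty acid oxidation to the chain, changed by 1.07. At an unadjusted p under 0.05 there were 8 higher and 1 lower (13.1% and 12.2% of all genes). The lower one, Cpt1a, had 168 and 195 in ventilated lungs, against 279 and 302 in controls (log2 change -0.68, limma adjusted p = 0.0618). Of 9 citric acid cycle genes 1 rose (Idh3g, a subunit of isocitrate dehydrogenase, 0.89) and the median was 0.19. Of 10 inner membrane carriers and porins 2 rose, Ucp1 and Ckmt2, and the median was 0.20. Ucp1, the uncoupling protein of brown fat, had 1216 and 1182 in ventilated lungs, against 75.2 and 58.9 in controls, a log2 change of 4.17 (limma adjusted p = 0.000322). Ckmt2, the mitochondrial creatine kinase of striated muscle, changed by 0.95. Of 5 antioxidant genes 1 rose (Sod2, the mitochondrial superoxide dismutase, 0.79). Of 26 listed regulators and assembly factors of the chain, 5 were on the rat array and 4 were tested (Esrra, Hspd1, Hspe1 and Phb2). Limma called 0 of these 4 (3 higher at an unadjusted p under 0.05), with a median of 0.42. The genes of NRF1, GABP and PGC-1alpha were not among the 5.

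Markers of cell types and other tissues also changed in the rat, some lists upward and some downward. Over all rat genes 2.48% rose and 3.30% fell. Ucp1 and Ckmt2, counted above as carriers, were counted again among the fat (Ucp1) and cardiac (Ckmt2) markers. The summed signal of the 55 respiratory chain genes was 43594 and 42084 in ventilated lungs, against 30207 and 32161 in controls, a ratio of 1.37. Of 9 tested brown and white fat markers 7 rose, with a summed signal of 4475 and 4766 in ventilated lungs, against 1933 and 1820 in controls. Lep and Lpl were below the controls without overlap, neither of them called, and Plin1 did not pass the filter on dim genes. Of 8 T cell and thymus markers 7 rose, with sums of 6756 and 7602 in ventilated lungs, against 778 and 631 in controls. Rag1 did not pass the filter.

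Striated muscle markers moved less than the fat and T cell markers. Over all rat genes 2.48% rose and 3.30% fell, 27.7% were higher without overlap and 27.1% lower. Of 14 cardiac markers 3 rose (Nppa, Myl4 and Ckmt2) and 1 fell (Atp2a2), with sums of 3508 and 3396 in ventilated lungs, against 3005 and 3055 in controls. Of 10 skeletal muscle markers 0 were called by limma (5 higher at an unadjusted p under 0.05) and 8 were higher without overlap, with sums of 1362 and 1326 in ventilated lungs, against 901 and 813 in controls, and Myh4 did not pass the filter. Of 11 lung epithelial and endothelial markers 2 fell (Sftpc and Ace), 9 were lower without overlap and 0 had a change above 0, with sums of 15954 and 17298 in ventilated lungs, against 20119 and 19957 in controls. Of 7 neutrophil markers 1 rose (S100a8), with sums of 5730 and 5417 in ventilated lungs, against 4450 and 4556 in controls. Of 4 erythroid markers limma called 0 (1 higher and 2 lower at an unadjusted p under 0.05), with sums of 5590 and 7822 in ventilated lungs, against 8214 and 7574 in controls. The part of these other cell types in the respiratory chain result was not tested.

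**Figure D2:**
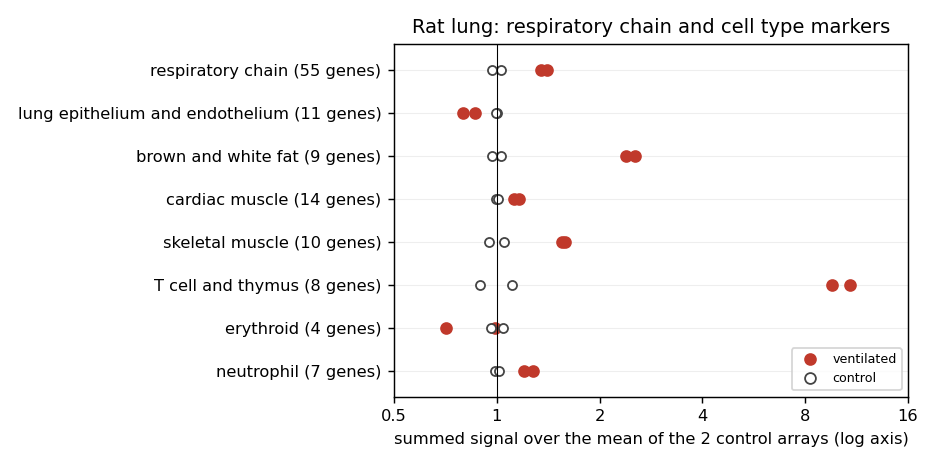
Summed signal of the respiratory chain genes and of each marker list on the 4 rat arrays, divided by the mean of the 2 control arrays, on a log axis. Filled points are ventilated arrays and open points are controls. The ratio of group means was 10.2 for the T cell and thymus list, 2.46 for the fat list and 1.57 for skeletal muscle. It was 1.37 for the respiratory chain, 1.24 for neutrophil, 1.14 for cardiac muscle, 0.85 for erythroid and 0.83 for lung markers.

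The rat members shared features that the rule did not use. The members were short: the mouse counterparts spanned a median of 7643 bases, against 22299 for all genes. In the shortest of 5 equal bins by gene span the median log2 change was 0.08 over all genes and 0.50 over its 22 members, of which 21 lay above the controls without overlap, as did 36.2% of all genes in that bin. In the bin of longest genes the median of all genes was -0.19. Gene length and change thus moved together across the whole rat table. The mouse members were short too, with a median span of 7394 bases, against 19779 for all genes. In the shortest mouse bin the median change was -0.17 over members and -0.055 over all genes. The rat members were also bright, with a median log2 signal of 8.94, against 6.42 over all genes. In the brightest of 5 bins 34 of 41 members lay above the controls without overlap, as did 35.5% of all genes. In the dimmest bin 22.0% of all genes did. The part of length or brightness in the members' values was not tested.

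In the mouse no respiratory chain gene passed the test. Of 73 genes limma called 0 higher and 0 lower, as it called 0% of all 6888 genes in either direction, and the smallest adjusted p was 0.99969. At an unadjusted p under 0.05 there were 0 members in either direction, against 1.61% (higher) and 0.973% (lower) of all genes. The ventilated arrays lay below both controls for 19 members (14.5% of all genes did so) and above both for 2 (12.9% of all genes). The median log2 change was -0.13, against -0.03 over all genes, and the change was above 0 in 14 of 73 members and in 46.8% of all genes. With arrays scaled to a common median 9 members were lower without overlap (10.9% of all genes) and the median was -0.084. Without probe sets of ambiguous suffix 10 of 60 members were lower (14.5% of all genes).

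**Figure D3:**
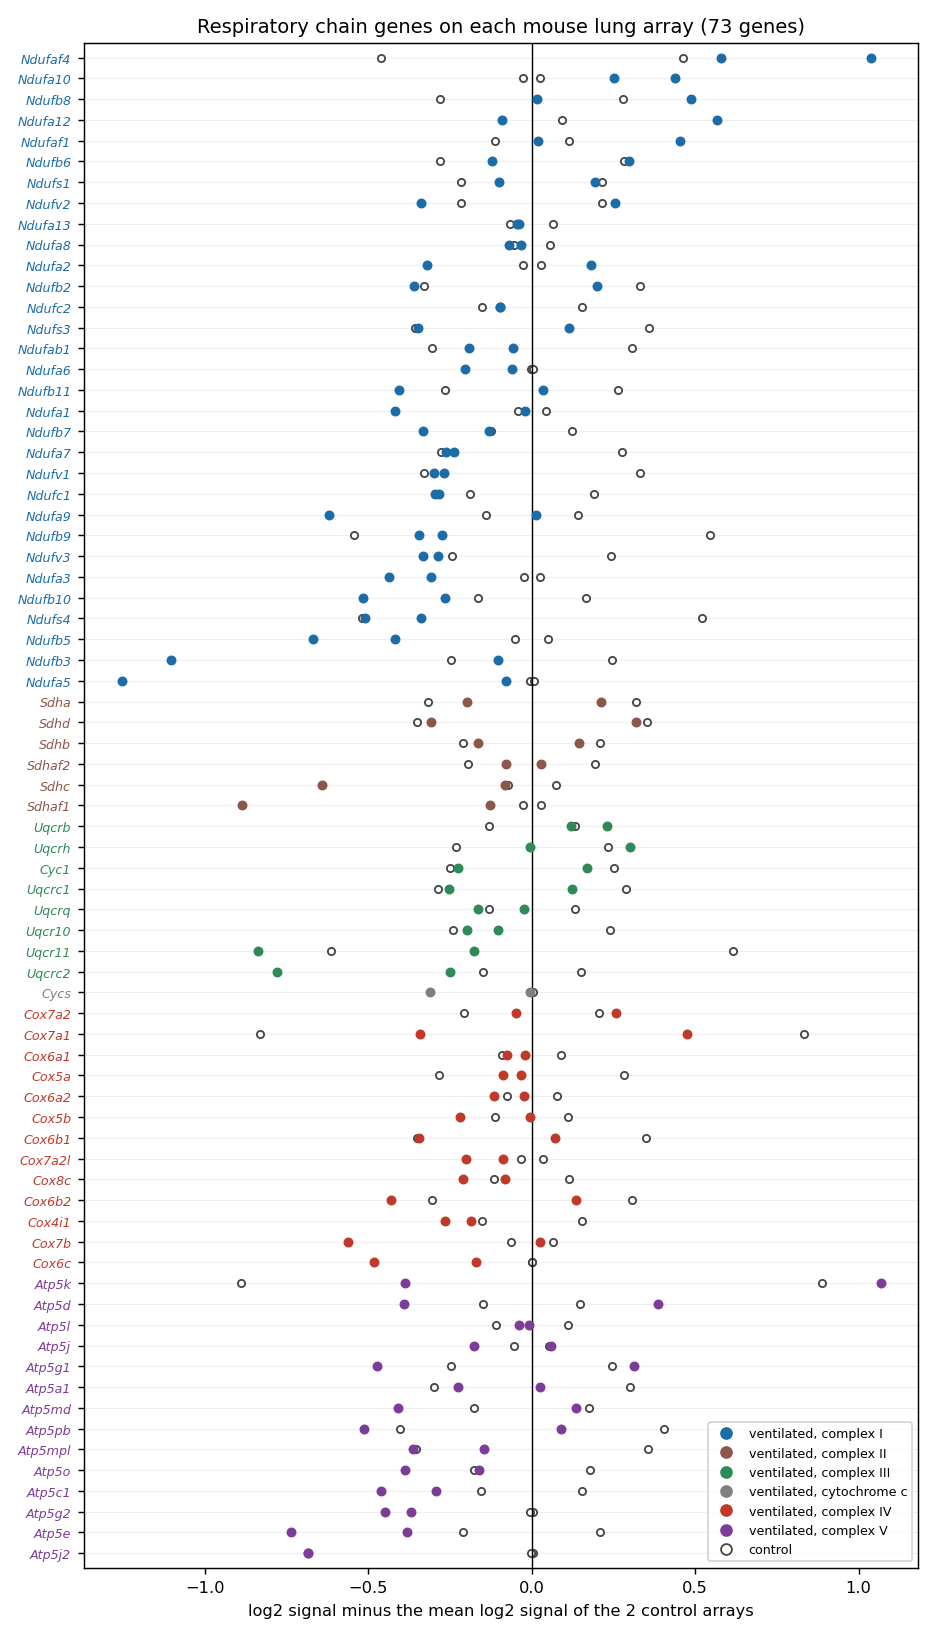
Respiratory chain genes on each mouse lung array. The horizontal axis is the log2 signal minus the mean log2 signal of the 2 control arrays, filled points are ventilated arrays coloured by complex, and open points are control arrays. The groups overlap for 52 of 73 genes, and the controls themselves lie apart for many of them.

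The spread between the mouse controls exceeded the shift. Over the members, the median log2 signal relative to the control mean was -0.09 and -0.19 on the ventilated arrays, against -0.11 and 0.11 on control 1 and control 2. With 1 array left out, more of all genes separate as well. The members below the controls without overlap were then 32 of 72 without ventilated 1 (29.2% of all genes), 28 of 73 without ventilated 2 (37.5%), 46 of 73 without control 1 (30.6%) and 32 of 73 without control 2 (34.8%). Those above were 3 without ventilated 1 (28.4% of all genes), 14 without ventilated 2 (34.0%), 7 without control 1 (29.2%) and 26 without control 2 (28.6%). The median change was -0.26 without control 1 and -0.10 without control 2. Control 2 also had more cardiac muscle signal: the 14 markers summed to 4443 and 3615 in ventilated lungs, against 4337 in control 1 and 8877 in control 2, and Myl2 did not pass the filter. The 9 neutrophil markers summed to 10357 and 1904 in ventilated lungs, against 1094 and 2364 in controls, and spike-in probe sets on ventilated 1 were at 2.62 times the control mean. The ratio of 3' to 5' Gapdh probe sets, a sign of RNA integrity, was 1.53 and 2.48 in ventilated lungs, against 2.96 and 1.16 in controls. For Actb the ratio was 1.80 and 2.21 in ventilated lungs, against 2.18 and 1.88 in controls. Their part in the members' values was not tested.

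Among complex I genes of the mouse, Ndufb5 had the smallest p. Its signal was 934 and 1112 in ventilated lungs, against 1435 and 1539 in controls, a log2 change of -0.54 ± 0.23 (SE, n = 2 each, limma adjusted p = 0.99969). Ndufa5, a subunit of the matrix arm, had 347 and 785 in ventilated lungs, against 826 and 833 in controls, a log2 change of -0.67 that was -0.072 without ventilated 1. Ndufb5 was low on both ventilated arrays, whereas Ndufa5 was low on 1 of them. Ndufaf4, an assembly factor, had 71.4 and 51.9 in ventilated lungs, against 47.9 and 25.3 in controls, and Ndufa10, a membrane arm subunit, had 124 and 109 in ventilated lungs, against 93.1 and 89.8 in controls. These were the 2 members above the controls without overlap, at log2 changes of 0.81 and 0.34, neither of them called. The dimmer control decided much of the Ndufaf4 value, which was 0.34 without it.

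In complexes II and III of the mouse, Sdhaf1, an assembly factor of complex II, had 129 and 219 in ventilated lungs, against 235 and 244 in controls (log2 change -0.51). Uqcrc2, a core protein of complex III, had 410.1 and 591 in ventilated lungs, against 780.4 and 635 in controls (log2 change -0.52). Both were lower on every ventilated array, and neither was called. Without ventilated 1, the lower array of both, the changes were -0.13 (Sdhaf1) and -0.25 (Uqcrc2). Cycs, the electron carrier cytochrome c, had 81.2 and 65.8 in ventilated lungs, against 81.4 and 81.9 in controls (log2 change -0.16), so that ventilated 1 equalled the controls to within a signal of 1.

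In complex IV of the mouse, Cox6c had 1779 and 1430 in ventilated lungs, against 2001 on both controls (log2 change -0.33). Cox4i1 had 66.6 and 70.4 in ventilated lungs, against 72.0 and 89.0 in controls (log2 change -0.23), and Cox7a2l had 440.1 and 476 in ventilated lungs, against 494 and 518 in controls (log2 change -0.14). These were the complex IV genes below the controls without overlap. None was called, and 1 array carried much of each value: Cox6c was -0.18 without ventilated 2, Cox4i1 -0.067 without control 2 and Cox7a2l -0.082 without ventilated 1. Cox6a1 (log2 change -0.05), Cox6a2 (-0.07), Cox7a1 (0.07) and Cox7a2 (0.11) overlapped, and the signs were not stable: Cox6a1 became 0.11 with arrays scaled to a common median, Cox6a2 became 0.010 without control 1, Cox7a1 became -0.041 in the deposited values, and Cox7a2 became -0.10 without control 1.

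In complex V of the mouse, Atp5e, the epsilon subunit, had 249 and 318 in ventilated lungs, against 359 and 480 in controls (log2 change -0.56). Atp5c1, the gamma subunit, had 648 and 576 in ventilated lungs, against 713 and 883 in controls (log2 change -0.38). Both were lower without overlap and not called, and without control 2 they were -0.35 (Atp5e) and -0.22 (Atp5c1). Atp5j2, a membrane subunit, had 11.9 and 13.6 in ventilated lungs, against 22.9 and 22.9 in controls, and both ventilated values were below the floor of 14.2, so its log2 change of -0.68 is a difference from the floor.

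The other mitochondrial gene groups gave no call in the mouse either. Limma called 0 of 15 fatty acid oxidation genes and 0 of 15 citric acid cycle genes, with 0 of each at an unadjusted p under 0.05, and their median log2 changes were -0.12 and 0.02. Ucp1, which rose in the rat, did not pass the filter on dim genes in the mouse.

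**Figure D4:**
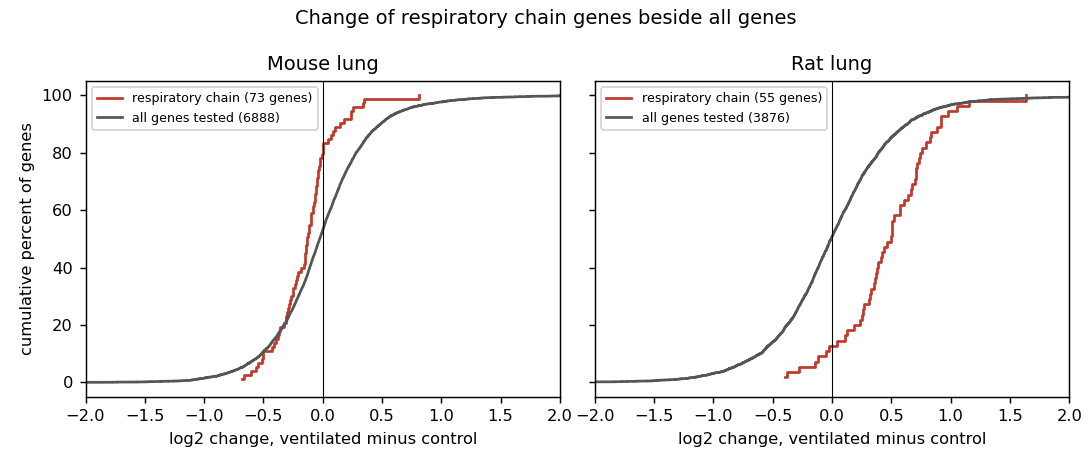
Cumulative percent of genes by log2 change, ventilated minus control, in the mouse and the rat, with the respiratory chain genes beside all genes tested and the axis cut at 2 on either side. The members' median was -0.13 in the mouse and 0.50 in the rat, against -0.03 and -0.01 over all genes.

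The species comparison asked whether the change differed between rat and mouse, and used the interaction of species and ventilation over 2301 genes measured in both. Tidal volume, duration, the airway cannula of the controls and the array with its probes also differed. Species, regimen and array therefore cannot be told apart. Limma called 0 of the 41 shared members, against 0.304% of the 2301 genes, and 18 had an unadjusted p under 0.05, against 12.7% of all. The rat change was above the mouse change in 39 of 41 members and in 1175 of 2301 genes, and the median difference was 0.74 over the members and 0.02 over all genes. The smallest adjusted p belonged to Ndufb5, with a difference of 1.38 ± 0.27 (SE, rat minus mouse, limma adjusted p = 0.0833). Cox6c followed at 1.48 (limma adjusted p = 0.110) and the gamma subunit, Atp5f1c in the rat and Atp5c1 in the mouse, at 1.12 (limma adjusted p = 0.168).

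Of the 41 genes 11 were higher without overlap in ventilated rats and lower without overlap in ventilated mice, against 4.74% of the 2301 genes, and 0 showed the reverse, against 4.26% of the 2301 genes. They came from complexes I, III, IV and V. Among them, mouse Ndufb5, Uqcrc2, Cox4i1, Cox6c and Atp5e were read on probe sets of ambiguous suffix (_f_at or _i_at). Without such probe sets 33 shared members were left, and the interaction called 0 of them, against 0.423% of 2126 genes. The other mouse Cox4i1 probe set overlapped, and the other rat Cox6c probe set was lower without overlap. Without mouse ventilated 2 the interaction called 3 members, against 3.66% of 2293 genes.

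**Figure D5:**
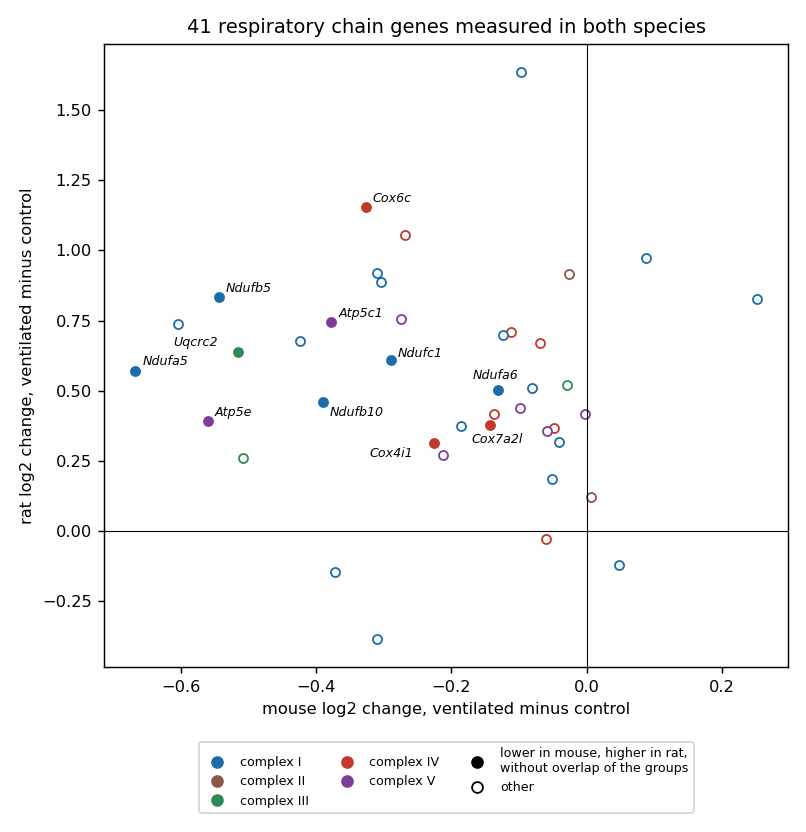
Log2 change of the 41 shared respiratory chain genes, ventilated minus control, in the mouse (horizontal axis) and the rat (vertical axis), coloured by complex. Filled points are the 11 genes lower in the mouse and higher in the rat without overlap, named by their mouse symbols, and 39 of 41 points have a larger rat than mouse change.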

How the data were processed

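Lung RNA of 8 samples was measured on Affymetrix arrays, MG_U74Av2 for the mouse and the maker's rat genome array for the rat. The deposited values are linear signal intensities, scaled by the authors to a common trimmed mean, as the values show (149.1 to 149.6). The sources used here name no signal software, detection calls or batches. Probe sets were named from the supplied platform tables; 10833 of 12422 mouse and 7006 of 8740 rat probe sets had 1 symbol. Species were matched by symbol or by a unique mouse synonym in RefSeq GRCm38.p6.

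Within each species, signals were quantile-normalised, raised to a floor at the 25th percentile (mouse 14.2, rat 11.5) and log2-transformed. The brightest probe set represented a gene, and genes whose mean signal did not exceed that percentile were dropped. Printed signals are not raised to the floor. limma 3.58.1 under R 4.3.3 compared the groups by lmFit and trended eBayes, with two-sided p-values adjusted over all genes and a threshold of 0.05. The pipeline was tested on simulated data.

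The members and gene lists were chosen with earlier results of these data known. Values per array were given for called members (at most 12 per species by smallest p), for the 5 largest non-overlapping changes per direction, for the smallest p of each complex, for the 3 smallest interaction p and for tissue isoform pairs, and any other member could be named. Atp5po, Cyc1, Sdha and Atp5if1 were given beyond that rule, after their values were seen, as was the NRF1 core of the promoter search. Alternatives changed the normalisation, floor, filter, probe-set rule, variance prior, replicate block and arrays.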

Additional observations from a re-analysis of the deposited data

Results flagged for a closer look

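The 11 genes with groups that did not overlap, and with opposite directions in the species, were followed further. The rat log2 change minus the mouse log2 change was 1.38 for Ndufb5, 1.24 for Ndufa5, 0.90 for Ndufc1, 0.85 for Ndufb10 and 0.64 for Ndufa6 in complex I. It was 1.15 for the complex III core protein Uqcrc2. In complex IV it was 1.48 for Cox6c, 0.54 for Cox4i1 and 0.52 for Cox7a2l. In complex V it was 1.12 for the gamma subunit Atp5c1 and 0.95 for the epsilon subunit Atp5e. The mouse values of Ndufb5, Uqcrc2, Cox6c, Cox4i1 and Atp5e come from probe sets of ambiguous suffix. The difference was tested for each by limma's interaction of species and ventilation, and none passed: the adjusted p ran from 0.0833 for Ndufb5 to 0.491 for Cox4i1. Rats and mice also differed in regimen and were read on different arrays, so species, regimen and array cannot be told apart here.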

How the results depend on the processing

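In the rat, 13 members were called higher. With arrays scaled to a common median 22 were called (155 genes higher and 102 lower in all, against 96 and 128), with all probe sets 21 (2.76% of all probe sets), with the floor at the 40th percentile 1 (17 of all genes higher), with no filter 1 (23 of all genes) and without the variance trend 0 (40 of all genes; 28 members at an unadjusted p under 0.05). It was 13 with the values as deposited (12 of the same genes), with a floor of 1 and with a robust prior, 17 with cyclic loess, 17 with the filter at the 50th percentile and 9 with the mean of probe sets. Without 1 array the count was 0 to 0, as it was over all genes, with the lone array of a group assumed to vary like the other group. The rat median was 0.60 with a common median, 0.40 with the mean of probe sets, 0.38 with all probe sets and 0.45 to 0.57 without 1 array. With all probe sets 71 were higher without overlap (27.6% of all) and 12 lower (27.3%). Here all probe sets means those with 1 symbol that passed the filter. Without 1 array these counts were 45 to 48 (36.8% to 39.5% of all genes) and 4 to 6 (37.9% to 40.9%). In the mouse, 1 was higher without overlap with the filter at the 50th percentile and 1 with chain subunits only, and 9 were lower with a common median and 10 without probe sets of ambiguous suffix. Without 1 array 3 to 26 were higher (28.4% to 34.0% of all genes, against 12.9% with all arrays), 28 to 46 lower (29.2% to 37.5%, against 14.5%), and the median was -0.26 to -0.088. The interaction called 0 to 3 without 1 array (at most 3.66% of all genes). The mean of probe sets reversed rat Cox6c (-0.00072) and Ndufb8 (-0.28). Mouse Cox6a1 reversed with a common median (0.11) and in the deposited values (0.056), and Cox7a1 in the deposited values (-0.041), with cyclic loess (-0.025) and with the higher floor (-0.18). Without 1 array, mouse Cox6a1 ran from -0.14 to 0.044, Cox6a2 from -0.15 to 0.010, Cox7a1 from -0.78 to 0.87 and Cox7a2 from -0.10 to 0.32. Apart from the smaller sample when an array was left out, the cause was not tested.

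The replicate number as a block left 6 rat members called (1.78% of all genes). The labels do not say that numbers pair animals, and deviations of same-numbered arrays correlated at -0.285 (mouse) and -0.106 (rat) over genes. Crossed numbers as a block, chosen after seeing the data, as were the subunit and suffix settings, called 15 rat members and 2 in the interaction. A batch block was not run, as no batch is given. Signals near the floor limit Cox5a, Cox6c-ps1 and mouse Atp5j2. They also limit mouse Ndufa12, Atp5k, Ndufs4 and Cox7a1, among others.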

Other observations

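Probe sets that match several symbols stood outside the rule but hold further chain genes. In the rat 6 of 7 were higher without overlap and 0 lower, with log2 changes from 0.15 to 1.21. Of the rat probe sets with 1 symbol that passed the filter, 27.6% were higher. The cytochrome c probe set (Cycs with its copies Cycsl1 and Cycs-ps9) had 343 and 568 in ventilated lungs, against 168 and 218 in controls, and the Cox7a2 probe set had 2551 and 2075 in ventilated lungs, against 1272 and 1311 in controls. A Cox5a probe set shared with LOC100361008 had 1908 and 1706 in ventilated lungs, against 1129 and 1146 in controls, while the probe set matching Cox5a alone was read near the floor and overlapped. In the mouse 9 several-symbol probe sets passed the filter, with log2 changes from -0.80 to 0.01. Of these 9, 0 were higher and 4 lower without overlap (13.4% and 14.3% of passing probe sets with 1 symbol). The lowest was the Ndufs5 probe set, at 360.1 and 346 in ventilated lungs, against 562 and 669 in controls. None of these values was tested, and reads of near-identical copies cannot be told apart on these probes.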
